A study of Mus musculus with 24 samples.

Results

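The genes described here are the early feedback inhibitors of the RAS-ERK pathway: the dual-specificity phosphatases Dusp1, Dusp4, Dusp5 and Dusp6, the Sprouty genes Spry1, Spry2 and Spry4, and the Spred genes Spred1 and Spred2. They were picked by symbol, and each was followed through its RefSeq 3′UTR entry with the highest mean read count over the 24 libraries, so that 8 of the 9 genes could be described, among 26995 gene symbols in all. Dusp5 was not analysed here. Spred1 and Spred2 had a second entry each, and the 8 entries used all passed the filters on low counts, among 26563 entries tested for total reads and 10589 tested for labelled reads.

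The libraries came from 3T3-L1 cells, a clonal line of mouse embryonic fibroblasts that turns into fat cells when given serum, insulin, dexamethasone and the phosphodiesterase inhibitor isobutylmethylxanthine. Cells received either the solvent DMSO or 0.5 µM ML-792, which blocks the enzyme that activates the small protein modifier SUMO. Harvests were at day -2 (pre-adipocytes), day 1 (under the inducing mixture), day 3 and day 7 (in medium with serum and insulin). The inducing mixture was replaced by that medium at day 3. Whether the day 3 harvest came before or after the change is not given in the sources used here. Each of the 8 conditions had 3 biological replicates, A to C. How long the day -2 cells had been exposed to ML-792 is not given in the sources used here. All cells, DMSO controls included, received 100 µM 4-thiouridine for 45 min before harvest, so that RNA made in that time carried T-to-C conversions. QuantSeq counted all reads at the 3′ end of transcripts (total reads), and SLAMseq the subset with at least 1 conversion (labelled reads, a measure of newly made RNA). No library was made without 4-thiouridine, so the share of converted reads without the label is not known here. Low labelled counts and shares thus have no measured floor.

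ERK is the last kinase of a relay that runs from growth factor receptors through RAS, RAF and MEK. Genes switched on by ERK include its own brakes: Dusp proteins remove the activating phosphates from MAP kinases, Sprouty proteins act between receptor and RAF, and Spred proteins bring the RAS inactivator neurofibromin to the membrane. Dusp1 is nuclear and also acts on the stress kinases p38 and JNK, Dusp4 is its nuclear relative, and Dusp6 is cytoplasmic and acts on ERK itself. Their mRNAs are known as short-lived, and ERK signalling is known to be needed early in the conversion of 3T3-L1 cells and to be restrained later.

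Libraries held 13554718 to 27013352 total reads and 115709 to 820046 labelled reads. The labelled share of a whole library averaged 3.17% ± 0.485 (SD, n = 3) in DMSO at day -2 and 1.27%, 1.03% and 1.03% at days 1, 3 and 7, and with ML-792 it averaged 2.83%, 1.06%, 0.958% and 0.837% at the same days. In each of the 8 conditions replicate B stood apart: the chi-square per entry between replicates was 9.61 to 30.3 for A against C and 36.7 to 86.0 for the pairs with B. Calls of single genes that change when B or another replicate is left out are given with the values without it. The summed level of 6 adipocyte markers rose from 1218 to 1368 CPM (counts scaled to a common library total) in DMSO at day -2 to 28962 to 32070 at day 7, and that of 5 pre-adipocyte markers fell from 10860 to 13059 to 615 to 966, while Ptprc, the pan-leukocyte marker, had 0 reads in all 24 libraries. In such bulk samples fewer cells of a kind and less RNA per cell cannot be told apart.

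The counted entries, on mm10 and all annotated as 3′UTR, were chr17:26505591-26506279 on the minus strand for Dusp1, chr8:34818784-34819894 on the plus strand for Dusp4 and chr10:99266300-99267489 on the plus strand for Dusp6. The Sprouty entries were chr3:37643552-37644599 (plus) for Spry1 and chr14:105891947-105892802 (minus) for Spry2, with Spry4 given beside its results. The Spred entries were chr2:117177950-117182279 (plus) for Spred1 and chr11:20021448-20024026 (plus) for Spred2. Levels below are normalised read counts, that is, counts brought to a common library size. Where groups of libraries are said not to overlap, this is a description, and the share of all entries without overlap was not counted. In these levels the genes are compared with themselves over conditions and not with each other.

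The sequences that accompany the results below belong to Dusp1 and Dusp6, the phosphatases that moved in opposite directions with ML-792. Promoter windows of 6 of the 8 measured genes were in the RefSeq table (GRCm38.p6, which is mm10), all but Dusp4 and Spry4. The cAMP response element TGACGTCA stood in 1 of these 6 windows, that of Dusp1, and in 1.79% of 32851 promoters, at position -143 counted from the gene's start. Its shorter form TGACG, which the full element contains, stood in 2 of the 6, Dusp1 and Spred2, and in 20.8% of promoters. The elements were searched on both strands. In the lines that follow, each gives the 250 bases before the start and capitals mark these elements: Dusp1 covers chr17:26508473-26508722 (minus strand), and Dusp6 covers chr10:99262981-99263230 (plus strand) and holds none.
Dusp1: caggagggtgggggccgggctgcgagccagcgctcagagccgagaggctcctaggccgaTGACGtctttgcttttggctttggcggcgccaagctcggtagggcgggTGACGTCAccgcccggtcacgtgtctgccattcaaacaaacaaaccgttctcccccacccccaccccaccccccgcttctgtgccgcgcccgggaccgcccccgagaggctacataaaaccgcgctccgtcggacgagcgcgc
Dusp6: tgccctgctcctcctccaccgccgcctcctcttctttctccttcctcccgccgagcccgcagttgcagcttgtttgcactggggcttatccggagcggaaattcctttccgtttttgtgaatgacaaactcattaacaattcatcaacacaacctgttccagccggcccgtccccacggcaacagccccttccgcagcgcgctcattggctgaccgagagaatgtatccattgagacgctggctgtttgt
The AP-1 site TGANTCA (7.81% of promoters), the ETS site CCGGAAGT (3.89%), the CArG box (1.63%) and the full glucocorticoid response element (0.00913%) had no match in the 6 windows.

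In the last 500 bases of the counted entries, the AU-rich element TTATTTATT, a nonamer known from unstable mRNAs, stood on the transcribed strand of Dusp1 alone among the 8 genes and in 3.04% of 9573 genes with an entry of that length. It is shown in capitals with its neighbouring bases, at chr17:26505870-26505898 (minus strand, 3′UTR).
Dusp1 AU-rich element: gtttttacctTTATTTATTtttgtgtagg
The shorter ATTTA occurred 1 to 3 times in each of the 8 genes, most often in Spry4, against a median of 1 over all these genes. This scan was chosen after the expression values were seen, and a match is a description of letters, not a site shown to act.

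The first question was how the brakes changed as DMSO-treated pre-adipocytes became fat cells. By day 7, 6 of the 8 genes were lower than at day -2 (Dusp1, Dusp6, Spry1, Spry2, Spred1 and Spred2) and 2 were higher (Dusp4 and Spry4), so the family did not move as one. Dusp4 and Spry4 rose steeply between day 1 and day 3, Spry1 rose between days 1 and 3 and fell again by day 7, Spry2 fell by day 1 and once more after day 3, and Spred1 fell by day 1. In edgeR's quasi-likelihood test at an adjusted p under 0.01, the genes called higher and lower numbered 0 and 3 at day 1 against day -2, where 5.44% and 8.27% of all entries were called higher and lower. They numbered 2 and 4 at day 3 (13.4% and 17.1% of all entries) and 2 and 6 at day 7 (15.5% and 17.1%). Between days 1 and 3 they numbered 3 and 0 (9.03% and 9.85% of all entries), and between days 3 and 7 they numbered 0 and 5 (5.32% and 3.46%). These numbers rested on the replicates kept: at days 1, 3 and 7 against day -2, 0, 4 and 5 genes were called without A, 6, 6 and 8 without B, and 0, 4 and 5 without C, and between days 3 and 7 it was 1, 6 and 2. The falls of Spry1 and Spred2 and the rise of Spry4 at day 7 were those lost without A or C.

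**Figure D1:**
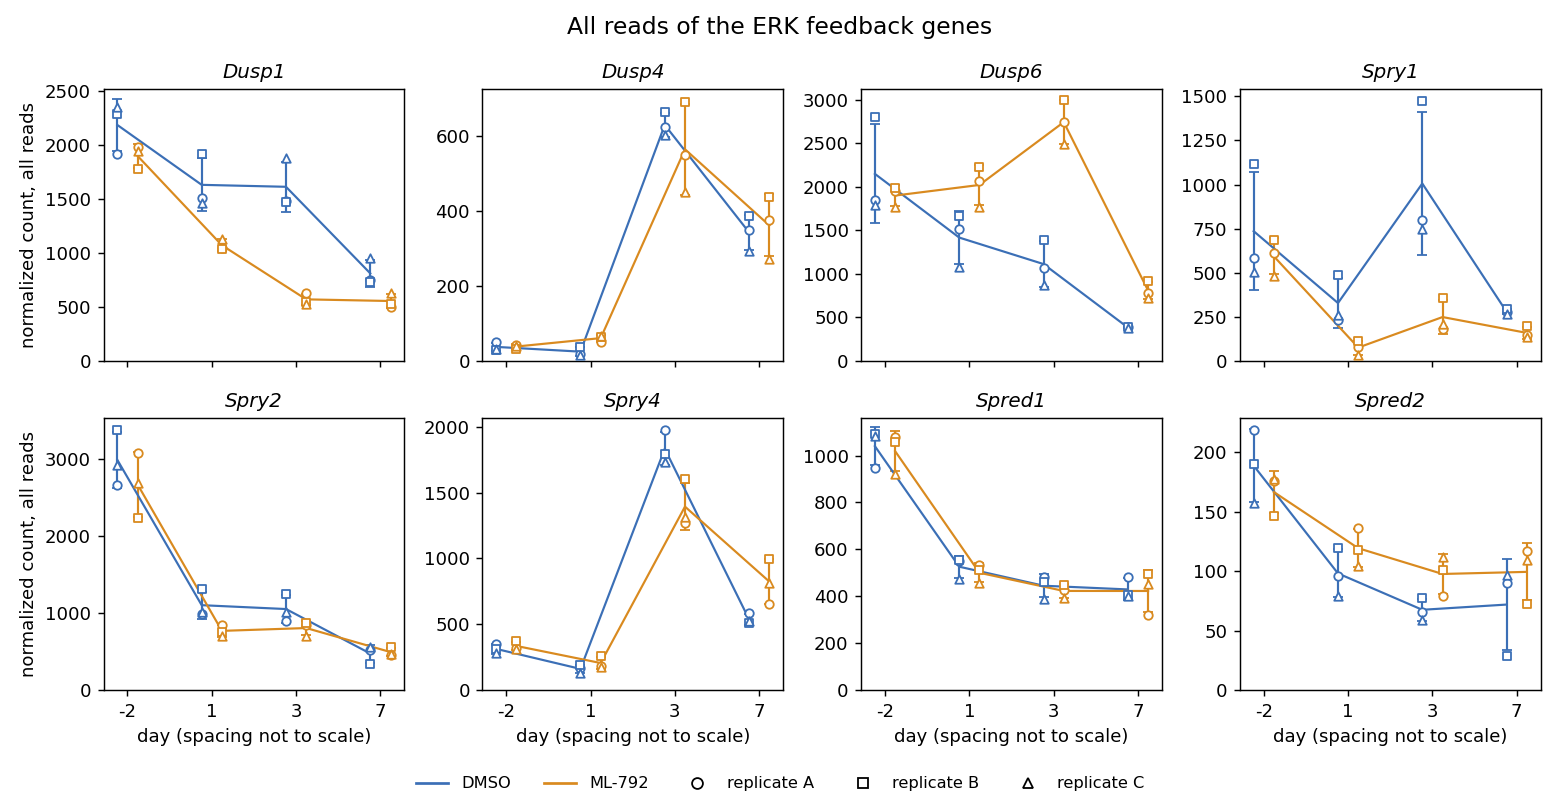
Normalised total read counts of the 8 genes by day. Points are libraries (replicates A to C), lines join group means and bars are SD, in DMSO (blue) and ML-792 (orange); each gene has its own axis from 0. Dusp4 and Spry4 peak at day 3 in both arms, Dusp6 at day 3 lies between 875 and 1394 in DMSO and between 2494 and 2996 in ML-792, and Dusp1 and Spry1 with ML-792 lie below DMSO at days 1, 3 and 7.

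Among the phosphatases, Dusp1 fell after day 3. Its normalised total counts in replicates A, B and C were 1911, 2289 and 2351 at day -2, 1512, 1913 and 1464 at day 1, 1479, 1474 and 1881 at day 3, and 745, 730 and 955 at day 7. All 3 day 7 libraries lay below every earlier one, while days 1 and 3 overlapped. The changes at day 1 (-0.42 ± 0.18, SE) and day 3 (-0.44 ± 0.18) against day -2 were not called (edgeR adjusted p = 0.11 and 0.063). At day 7 it differed from day -2 by -1.43 ± 0.18 (edgeR adjusted p = 1.1e-05) and from day 3 by -0.99 ± 0.18 (adjusted p = 0.0014), the latter with an adjusted p of 0.062 without replicate A and 0.022 without C.

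Dusp4 was low in pre-adipocytes and at day 1, with 50.7, 30.4 and 31.1 normalised counts at day -2 and 19.3, 38.3 and 16.5 at day 1. It stood at 624, 664 and 603 at day 3 and at 350, 387 and 294 at day 7. The 6 late libraries lay far above the 6 early ones, with no overlap. Dusp4 rose by 4.67 ± 0.32 on the log2 scale between day 1 and day 3 (edgeR adjusted p = 4.5e-08), which is 25.5-fold. It was 9.13-fold higher at day 7 than at day -2 (adjusted p = 4.1e-07), and its change from day 3 to day 7, -0.88 ± 0.27, was not called (adjusted p = 0.036) but was without B (0.0084). Without B the day 1 change against day -2 was called as well (-1.20, 0.009, against -0.61 ± 0.32 and 0.20 with all libraries).

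Dusp6, the ERK-directed cytoplasmic phosphatase, was lower at days 3 and 7. Its normalised counts were 1855, 2807 and 1788 at day -2, 1511, 1667 and 1076 at day 1, 1070, 1394 and 875 at day 3, and 386, 391 and 375 at day 7. The day 7 libraries were the lowest and lay close together. Dusp6 changed by -0.95 ± 0.22 on the log2 scale from day -2 to day 3 (edgeR adjusted p = 0.003, but 0.051 without replicate A and 0.023 without C) and by -2.49 ± 0.24 to day 7 (adjusted p = 4.6e-07), the last a 5.6-fold difference. From day 3 to day 7 it changed by -1.54 ± 0.23 (0.00027, but 0.0217 without A).

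The Sprouty genes took 3 different courses. Spry2 stood at 2668, 3386 and 2920 at day -2, at 984, 1306 and 1017 at day 1, at 893, 1253 and 1010 at day 3 and at 526, 339 and 554 at day 7. Its later libraries all lay below the day -2 libraries, and days 1 and 3 overlapped. Spry2 fell by 1.44 ± 0.21 on the log2 scale at day 1 (edgeR adjusted p = 0.00013) and by 2.66 ± 0.22 at day 7 (adjusted p = 1e-07), a 6.33-fold difference at day 7 and the largest fall among the 8 genes. The day 1 value was not called without replicate A (adjusted p = 0.014) or without C (0.0104). From day 3 to day 7 Spry2 changed by -1.15 ± 0.21 (0.0014, but 0.0266 without A and 0.0212 without C).

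Spry4, counted at chr18:38586265-38589805 (minus strand, 3′UTR), showed a sharp peak at day 3. Its normalised counts were 349, 309 and 278 at day -2, 166, 187 and 126 at day 1, 1975, 1791 and 1732 at day 3 and 581, 506 and 523 at day 7. No group overlapped another. Between day 1 and day 3 Spry4 rose by 3.52 ± 0.19 on the log2 scale (11.5-fold, edgeR adjusted p = 4.3e-09), and it fell by 1.77 ± 0.18 from day 3 to day 7 (adjusted p = 7.6e-06). The day 1 change against day -2 was -0.97 ± 0.18 (0.0011, but 0.081 without A and 0.026 without C). The day 7 level was 1.72-fold that of day -2 (adjusted p = 0.002, but 0.056 without replicate A and 0.03 without C).

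Spry1 had its lowest mean counts at days 1 and 7. It had 582, 1119 and 506 normalised counts at day -2, 234, 488 and 261 at day 1, 797, 1471 and 750 at day 3 and 276, 293 and 265 at day 7. Replicate B was well above its mates at days -2, 1 and 3 but not at day 7, and days -2 and 3 overlapped. Spry1 rose by 1.62 ± 0.34 on the log2 scale between days 1 and 3 (edgeR adjusted p = 0.0021) and fell by 1.85 ± 0.35 between days 3 and 7 (adjusted p = 0.0016). Its day 1 fall, -1.16 ± 0.34, was not called (adjusted p = 0.021) but was without replicate B (-1.13, adjusted p = 0.00013). The calls between days 3 and 1 and between days 7 and 3 were lost without A (adjusted p = 0.033 and 0.027) and without C (0.020 and 0.017). At day 7 against day -2 Spry1 changed by -1.40 ± 0.34 (0.0036, but 0.0227 without A and 0.0144 without C).

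The Spred genes were lower by day 7 with little change after day 3. Spred1 had 947, 1091 and 1082 normalised counts at day -2, 551, 555 and 472 at day 1, 484, 461 and 389 at day 3 and 483, 405 and 399 at day 7. All 9 later libraries lay below the day -2 libraries, and days 3 and 7 overlapped. Its log2 fold change was -0.98 ± 0.17 at day 1 (edgeR adjusted p = 0.00047, but 0.028 without replicate A and 0.029 without C) and -1.28 ± 0.17 at day 7 (adjusted p = 1.5e-05).

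Spred2 had 218, 190 and 157 normalised counts at day -2, 95.6, 119 and 79.2 at day 1, 65.7, 77.7 and 59.0 at day 3 and 90.3, 28.2 and 97.1 at day 7. Replicate B at day 7 was well below its mates. Its change of -0.94 ± 0.36 at day 1 was not called (edgeR adjusted p = 0.072) but was without B (0.0081). Its fall of 1.48 ± 0.37 at day 3 was called (edgeR adjusted p = 0.0042), though not without A (0.098) or C (0.035). At day 7 the change was -1.40 ± 0.37 (0.0057), -1.48 without A (0.062), -1.004 without B (0.0087) and -1.79 without C (0.014). The second Spred2 entry, of 1150 bases, lies within the first, whose length is 2579 bases. Reads of this stretch could be split between the entries, so the level of Spred2 is uncertain. Against day -2 the second entry changed by -1.37 ± 0.37 at day 3, which was called (edgeR adjusted p = 0.0073). Its change of -1.19 ± 0.37 at day 7 was not called (0.015).

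**Figure D2:**
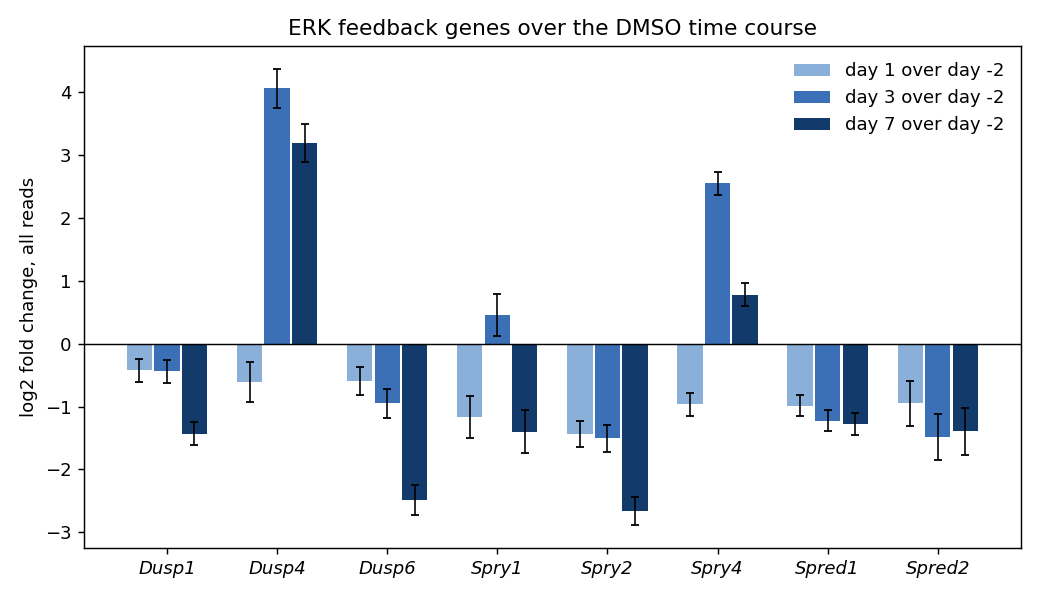
Fitted log2 fold change of total reads in DMSO at days 1, 3 and 7, each over day -2; bars are the fitted value and error bars its SE (n = 3 libraries per day). Dusp4 and Spry4 stand above 0 at days 3 and 7, while Dusp6 and Spry2 have the deepest falls at day 7, -2.49 and -2.66.

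Labelled reads of the brakes also fell from day -2, within a fall of labelled reads in most genes. At an adjusted p under 0.01, 0 of the 8 genes were called higher and 6 lower at day 1 (0.567% and 19.1% of all entries tested), 0 and 6 at day 3 (1.84% and 32.6%) and 0 and 5 at day 7 (1.73% and 28.4%). Without replicate A, 3 genes were called at day 1, and the calls lost were those of Dusp1 (adjusted p = 0.0119), Spred1 (0.125) and Spry4 (0.0265). The median log2 fold change over all entries was -1.27, -1.70 and -1.54 at these days, and over the 8 genes it was -2.49, -2.33 and -2.61. Labelled reads were also scaled by their own library totals, which removes the drop in labelled share of the whole library. With this scaling 1, 3 and 4 of the 8 genes were called in either direction at days 1, 3 and 7. The share of all entries called with it was not counted. On that scale Spry4 at day 3 was above day -2 by 1.61 (edgeR adjusted p = 0.006), against 0.07 ± 0.47 on the scale of the total reads.

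**Figure D3:**
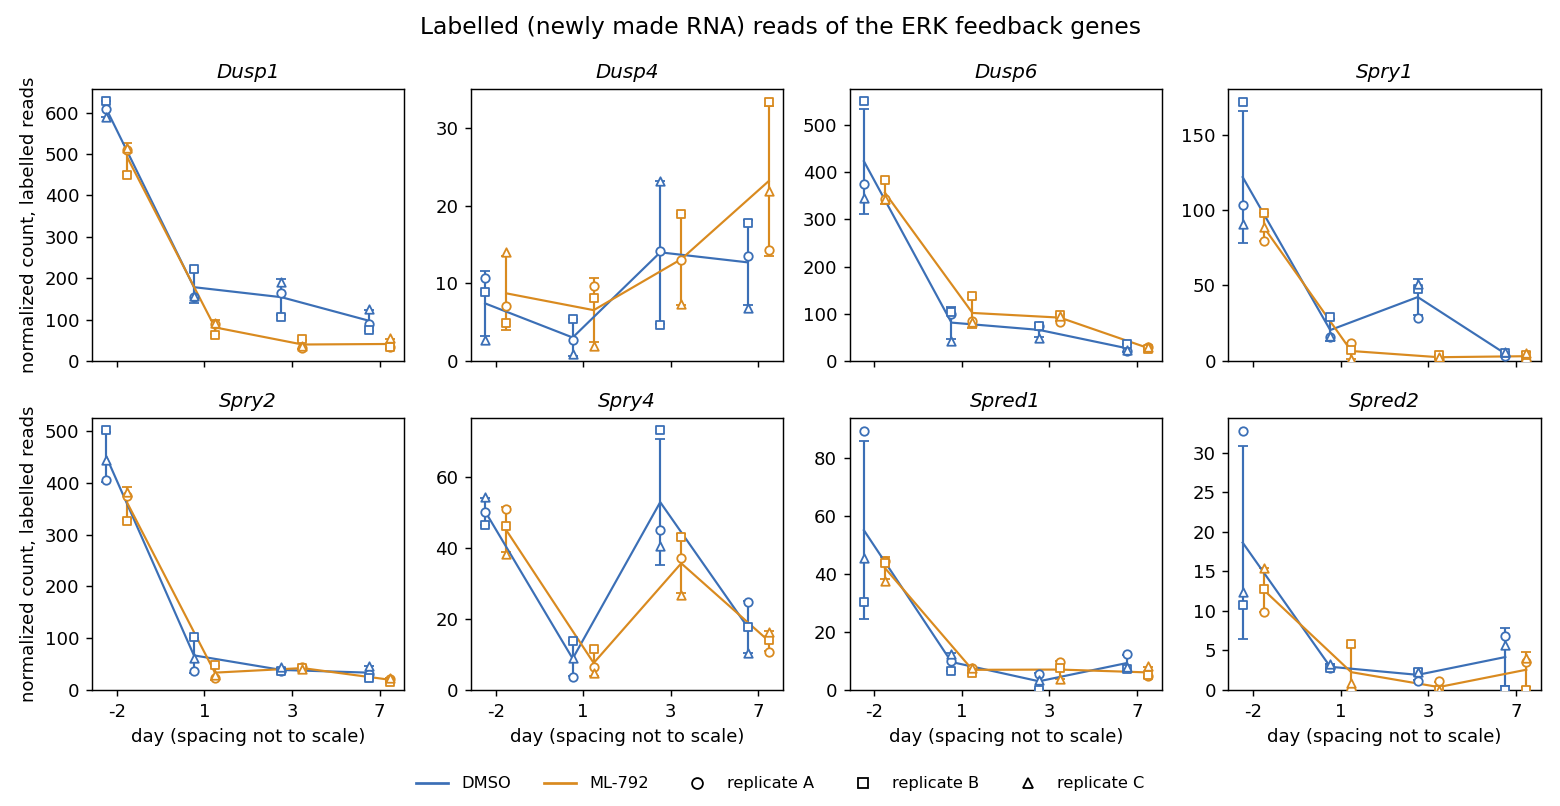
Normalised labelled read counts of the 8 genes by day, drawn as in the plot of total reads and with the library scaling of the total reads. In DMSO day -2 has the highest mean for 6 genes. The exceptions are Dusp4, with at most 23.1 normalised labelled counts in any DMSO library, and Spry4, with means of 50.2 at day -2 and 52.8 at day 3.

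At day 7 the deepest fitted labelled falls from day -2 belonged to Spry1 and Dusp6. That of Spry2 was close to Dusp6, at -3.75 ± 0.41 on the log2 scale (edgeR adjusted p = 1e-10). Spry1 had 103, 172 and 90.6 normalised labelled counts at day -2, 28.5, 47.5 and 50.9 at day 3 and 3.39, 5.21 and 5.71 at day 7. It was thus lowest in the fat cells, where the libraries held 3 to 5 labelled reads. Spry1 fell by 4.64 ± 0.54 on the log2 scale from day -2 to day 7 (edgeR adjusted p = 7.8e-10). From day 3 to day 7 it fell by 3.11 ± 0.54 (adjusted p = 0.00032, but 0.012 without replicate A and 0.023 without C), and it was the 1 gene of the 8 called lower there, where 0.17% of entries were called higher and 0.0661% lower.

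Dusp6 had 374, 550 and 345 normalised labelled counts at day -2, 98.4, 103 and 42.1 at day 1, 74.4, 74.2 and 48.6 at day 3, and 20.3, 36.5 and 23.99 at day 7. Its log2 fold change at day 7 against day -2 was -3.96 ± 0.41 (edgeR adjusted p = 3.3e-11). Every Dusp6 library after day -2 lay below the lowest day -2 library.

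Spry4 was the 1 gene whose labelled reads rose again by a called amount. It had 49.9, 46.5 and 54.2 normalised labelled counts at day -2, 3.68, 13.7 and 9.07 at day 1, 44.9, 73.0 and 40.5 at day 3 and 24.8, 17.7 and 10.3 at day 7. Day 3 lay above day 1 in all libraries and overlapped day -2. Between days 1 and 3 Spry4 rose by 2.57 ± 0.53 (edgeR adjusted p = 0.00073), where 1.35% of entries were called higher and 1.65% lower, but it was not called without replicate A (0.0371) or C (0.0101). Dusp4, which rose 25.5-fold in total reads between the same days, had 4 to 20 labelled reads per library at day 3 against 1 to 6 at day 1 and was not called (2.19 ± 0.87, adjusted p = 0.13).

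The labelled share of each gene, that is, labelled reads as a percentage of its total reads, was high for most of these genes at day -2. In DMSO at day -2 it averaged 28.1% ± 3.46 (SD, n = 3) for Dusp1 and 19.7% ± 0.426 for Dusp6. For the Sprouty genes it was 17.0% ± 1.42 (Spry1), 16.3% ± 2.80 (Spry4) and 15.1% ± 0.227 (Spry2), and for the Spred genes it was 9.51% ± 4.87 (Spred2) and 5.46% ± 3.50 (Spred1). The median over 8921 genes with at least 100 total reads in each of these libraries was 2.37%. Their top decile began at 7.11%, and 6 of the 7 feedback genes measured at that depth lay above it. Dusp1 stood at the 99.9th percentile and Spred1 at the 83.6th, with 9.42%, 2.79% and 4.19% in replicates A, B and C. Dusp4 had too few reads there for a percentile. The pattern did not hold for each gene later: Spred1 at day 3 averaged 0.675%, the 41.2nd percentile and below the gene median of 0.806%, and Spry1 with ML-792 at day 3 stood at the 60.7th percentile.

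At day 7 in DMSO the order changed. Dusp1 stayed highest at 11.9% ± 1.45 (SD, n = 3), at the 99.5th percentile of 8225 genes with a median of 0.874%, followed by Spry2 and Dusp6 at 7.01% ± 1.35 and 7.00% ± 2.10, while Spry1 averaged 1.72% ± 0.468, the 80.2nd percentile. Dusp4, abundant by then, had 3.60% ± 1.15. More T bases give more chances of a conversion, and in the last 500 bases of the entries 7 of the 8 genes held 168 to 194 T bases, above the median of 151 over all genes, while Dusp4 held 135. The part of T content in the shares was not tested.

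Relative to the whole library, none of these shares changed by a called amount. The test of the labelled share called 0 of the 8 genes at days 1, 3 and 7 against day -2, where 0.831%, 1.68% and 1.5% of entries were called, and 1, 4 and 2 of them had an unadjusted p under 0.05. Spry1 at day 7 came closest, with a log2 change in labelled over unlabelled reads of -2.19 ± 0.61 (edgeR adjusted p = 0.029). With library sizes of the total counts for both kinds of read, the library-wide drop stays in the value. In that setting 3, 7 and 5 of the genes were called at these days. The share of all entries called in it was not counted, so these numbers are not a trait of the 8 genes.

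**Figure D4:**
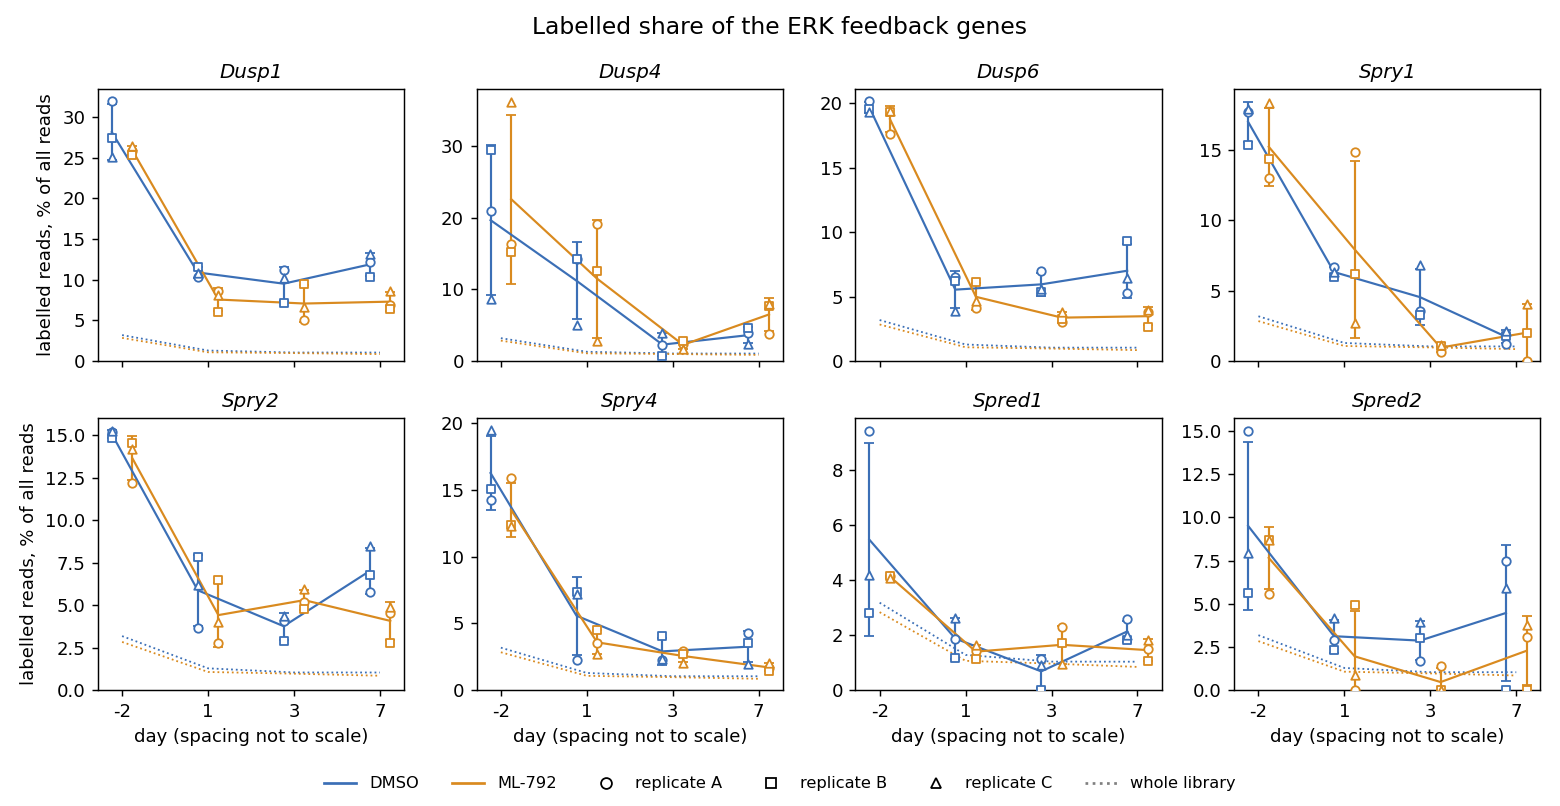
Labelled reads as a percentage of all reads of each gene, by day; points are libraries, lines group means, bars SD, and the dotted lines give the mean share of the whole library in DMSO (blue) and ML-792 (orange). At day -2 the means of all 8 genes lie above the dotted lines, with Dusp1 at 28.1% against 3.17% for the library in DMSO, and they are lower at day 1, as the dotted lines are.

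The main question of the experiment was what blocking SUMO does along this course. ML-792 moved the brakes in both directions. Dusp1 and Spry1 were lower, Dusp6 was higher at days 3 and 7, Dusp4 was higher at day 1 and Spry4 at day 7. Without a replicate block, Spry2, Spred1 and Spred2 passed no test in total reads. At day -2 none of the 8 genes, and none of the 26563 entries, passed the test in total reads (edgeR adjusted p under 0.1). The 8 genes called higher and lower numbered 0 and 0 at day -2 (0% and 0% of all entries, with 348 entries and 0 of the 8 genes at an unadjusted p under 0.05, and 0 of the 8 in DESeq2). They numbered 1 and 2 at day 1 (3.05% and 3.51% of all entries), 1 and 2 at day 3 (6.87% and 5.99%), and 2 and 1 at day 7 (5% and 4.6%). In labelled reads they numbered 0 and 0 at day -2 (0% and 0% of all entries). There 75 entries and 0 of the 8 genes had an unadjusted p under 0.05, and DESeq2 called 0. For labelled reads with ML-792, DESeq2 gave no adjusted p for some genes at some days, and these were counted as not called. In edgeR the genes called higher and lower numbered 0 and 1 at day 1 (0.132% and 0.756%), 0 and 2 at day 3 (0.359% and 0.557%) and 0 and 1 at day 7 (0.0472% and 0.822%). Without replicate B, 3, 4 and 3 of the 8 genes were called in total reads at days 1, 3 and 7, and 0, 2 and 1 in labelled reads. Without A they were 1, 3 and 1 in total reads and 0, 2 and 0 in labelled reads, and without C they were 2, 3 and 1 and 0, 2 and 0.

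**Figure D5:**
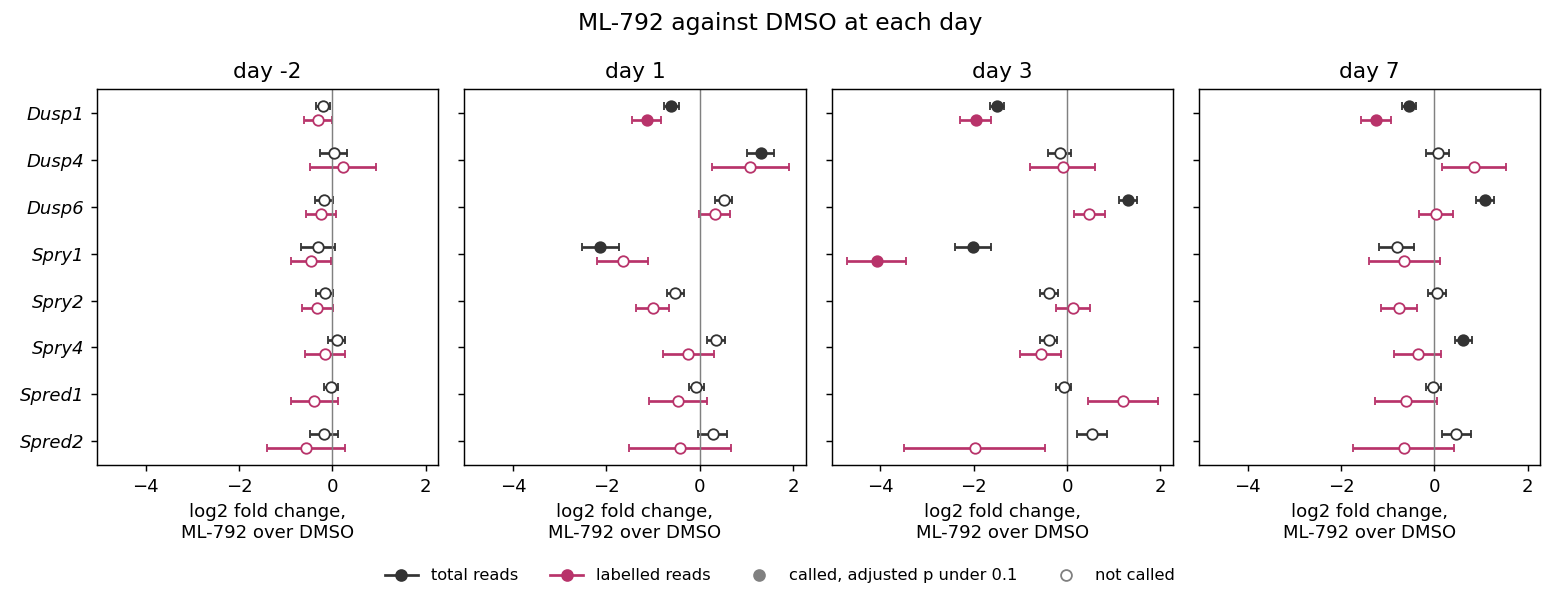
Fitted log2 fold change of ML-792 over DMSO at each day for total reads (black) and labelled reads (magenta), with SE; filled points are called at an adjusted p under 0.1. Dusp1 lies left of 0 in both readouts at days 1, 3 and 7, Dusp6 lies right of 0 in total reads at days 3 and 7 with labelled reads near 0 to 0.48, and Spry1 at day 3 reaches -4.08 in labelled reads.

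Dusp1 was lower with ML-792 at every day after induction, most at day 3. Its normalised total counts with ML-792 were 1976, 1774 and 1940 at day -2, 1046, 1033 and 1132 at day 1, 632, 546 and 531 at day 3 and 503, 528 and 632 at day 7. At days 1, 3 and 7 the ML-792 libraries all lay below the DMSO libraries of that day. On the log2 scale ML-792 differed from DMSO by -0.61 ± 0.15 at day 1 (edgeR adjusted p = 0.018), -1.50 ± 0.16 at day 3 (3e-07, a 2.83-fold difference) and -0.55 ± 0.16 at day 7 (0.031). The day 3 call was kept whichever replicate was left out, but that of day 1 was lost without A (adjusted p = 0.31) or B (0.11) and that of day 7 without A (0.36) or C (0.28).

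The labelled reads of Dusp1 moved the same way. At day -2 the normalised labelled counts, 610, 627 and 590 in DMSO and 511, 450 and 514 with ML-792, did not overlap, but the difference of -0.31 ± 0.30 was not called (edgeR adjusted p = 1). Normalised labelled counts at day 3 were 165, 105 and 191 in DMSO and 31.5, 51.9 and 35.3 with ML-792, which do not overlap. Their log2 fold change was -1.96 ± 0.33 at day 3 (edgeR adjusted p = 9e-05). At day 1 it was -1.13 ± 0.31 (adjusted p = 0.072; 0.33, 0.29 and 0.27 without A, B and C) and at day 7 it was -1.25 ± 0.32 (0.0496; 0.49 without A and 0.43 without C). Over all entries the median labelled difference at days -2, 1, 3 and 7 was -0.18, -0.30, -0.08 and -0.37. Scaled by labelled reads, Dusp1 changed by -1.87 at day 3 (9.4e-05) and was not called at day 1 (-0.90, 0.205) or day 7 (-0.91, 0.28). The labelled share of Dusp1 at day 3 averaged 9.49% ± 2.09 (SD, n = 3) in DMSO and 7.05% ± 2.29 with ML-792, and the fitted change relative to the library was -0.42 ± 0.28 (adjusted p = 0.82). Dusp1 is the gene whose cAMP response element and AU-rich element are printed above.

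Spry1 had the largest fitted differences with ML-792 among the 8 genes, in total and in labelled reads. Its normalised total counts with ML-792 were 79.2, 113 and 34.5 at day 1 and 180, 356 and 210 at day 3, against 234, 488 and 261 and 797, 1471 and 750 in DMSO. Neither day showed overlap, although replicate B was the highest library in each of these 4 groups. The log2 fold change was -2.13 ± 0.40 at day 1 (4.38-fold lower, edgeR adjusted p = 0.0015) and -2.02 ± 0.38 at day 3 (4.05-fold lower, 0.00085), and both calls were kept whichever replicate was left out. At day 7, with 145, 196 and 135 against 276, 293 and 265, the change of -0.81 ± 0.38 was not called (0.26) but was without replicate B (-0.95, adjusted p = 0.016).

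At day 3 few labelled reads of Spry1 were found with ML-792. The DMSO libraries held 26, 41 and 44 labelled reads of Spry1 and the ML-792 libraries 1, 3 and 2. Summed over replicates and scaled by library totals the ratio was 18, with an exact 95% interval of 8.01 to 50.1 that covers counting error only. The fitted log2 fold change was -4.08 ± 0.63 (edgeR adjusted p = 3.9e-05), and it was called without A, B or C in turn. At day 1 the change was -1.65 ± 0.55 (adjusted p = 0.17).

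Dusp6 went the opposite way in total reads. With ML-792 its normalised counts were 1950, 1984 and 1768 at day -2, 2067, 2232 and 1769 at day 1, 2745, 2996 and 2494 at day 3 and 784, 916 and 727 at day 7. The DMSO libraries were highest at day -2 and the ML-792 libraries at day 3, a difference between days that was not tested within the ML-792 arm. At days 1, 3 and 7 the ML-792 libraries all lay above DMSO. The log2 fold change was 0.51 ± 0.19 at day 1 (edgeR adjusted p = 0.155, but 0.025 without replicate B), 1.30 ± 0.19 at day 3 (2.47-fold, 4.1e-05) and 1.08 ± 0.19 at day 7 (2.11-fold, 0.00075). The last 2 calls were kept whichever replicate was left out.

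Labelled reads of Dusp6 did not follow by a called amount. They were 82.6, 97.5 and 95.03 normalised counts with ML-792 at day 3 against 74.4, 74.2 and 48.6 in DMSO, which do not overlap, and 29.8, 24.4 and 28.7 against 20.3, 36.5 and 23.99 at day 7, which do. The log2 fold change was 0.48 ± 0.34 at day 3 (edgeR adjusted p = 0.69) and 0.03 ± 0.37 at day 7 (0.99). The labelled share of Dusp6 averaged 5.94% ± 0.883 (SD, n = 3) in DMSO and 3.36% ± 0.410 with ML-792 at day 3, and the fitted change relative to the library was -0.79 ± 0.29 (adjusted p = 0.56).

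Dusp4 and Spry4 were highest at day 3 with ML-792 too. Dusp4 had 551, 693 and 452 normalised total counts at day 3 with ML-792 and 624, 664 and 603 in DMSO, with overlap and a log2 difference of -0.16 ± 0.24 (95% interval -0.63 to 0.32). At day 1 it had 50.3, 65.1 and 67.1 against 19.3, 38.3 and 16.5 in DMSO, which do not overlap, and was higher by 1.30 ± 0.29 (edgeR adjusted p = 0.0065, but 0.18 without replicate A and 0.23 without C). Spry4 at day 3 had 1267, 1600 and 1312 against 1975, 1791 and 1732, a difference of -0.40 ± 0.18 that was not called (0.20) but was without B (-0.52, 0.031). At day 7 it had 656, 998 and 815 against 581, 506 and 523 and was higher by 0.62 ± 0.18 (0.037; 0.14, 0.13 and 0.29 without A, B and C).

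In the fits without a replicate block, Spry2 and the Spred genes passed the test at no day in either readout. For Spred1 the log2 difference in total reads lay between -0.07 and -0.02 at the 4 days, with an interval of -0.38 to 0.24 at day 3. For Spry2 it ran from -0.52 ± 0.19 at day 1 (edgeR adjusted p = 0.13) to 0.06 ± 0.19 at day 7, and its ML-792 libraries lay below DMSO at days 1 and 3. With a replicate block Spry2 was called at day 1 in both readouts. Its labelled counts at day -2, 405, 502 and 445 in DMSO and 375, 326 and 383 with ML-792, did not overlap either (-0.32 ± 0.33, adjusted p = 1). For Spred2 it was 0.28 ± 0.31, 0.53 ± 0.32 and 0.47 ± 0.32 at days 1, 3 and 7, with 0 to 6 labelled reads per library after day -2.

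Whether the effect of ML-792 depended on the day was tested directly with the day-by-treatment terms. In total reads 5 of the 8 genes were called at an adjusted p under 0.1, where 9.66% of entries were: Dusp1 (edgeR adjusted p = 0.0017), Dusp6 (0.0025), Spry4 (0.057), Dusp4 (0.059) and Spry1 (0.061). In labelled reads Spry1 alone was called (0.085), where 0.246% of entries were, and its adjusted p was 0.49, 0.13 and 0.74 without A, B and C. Without B, Dusp1 was called in its place (0.00885). The number called in total reads was 0 without replicate A, 5 without B and 1 without C, which was Dusp6 (0.056). The labelled share relative to the library differed with ML-792 for 0 of the 8 genes at each day, where 0%, 0.0378%, 0.00944% and 0.0472% of entries were called at days -2, 1, 3 and 7, and 0, 0, 2 and 1 of the genes had an unadjusted p under 0.05.

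Summed levels of several marker lists lay apart between the arms at the same days. Summed pre-adipocyte markers were 1121 to 1378 CPM with ML-792 at day 3 against 616 to 727 in DMSO, and 1057 to 1291 against 615 to 966 at day 7. Of the 5 markers, 3 were called higher and 0 lower at day 3 (6.87% and 5.99% of all entries). At day 7, 2 were called higher and 1 lower (5% and 4.6%), so that sum joined markers that went opposite ways. Summed adipocyte markers were 20336 to 25406 against 17507 to 26278 at day 3 and 37801 to 45003 against 28962 to 32070 at day 7. The sum at day 3 joined markers that went opposite ways, with Cd36 higher (1.61 ± 0.23 on the log2 scale, edgeR adjusted p = 2.5e-05) and Adipoq (-0.86 ± 0.22, 0.012) and Lpl (-0.41 ± 0.14, 0.064) lower. The dividing-cell markers Mki67, Top2a and Ccnb1 summed to 59.1 to 79.9 with ML-792 at day 3 against 132 to 192. Only 1 of these 3 genes was called lower there, and 0 were called higher. The stress markers Hspa1a, Hspa1b and Ddit3 summed to 56.7 to 63.7 with ML-792 against 94.0 to 112 at day 3 and to 78.4 to 89.5 against 187 to 242 at day 7, where both tested genes, Hspa1b and Ddit3, were called lower. In the DMSO course the same sum went from 266 to 302 at day -2 to 60.1 to 68.0 at day 1. The part of these differences in the results on the feedback genes was not tested. Macrophage markers summed to at most 7.84 CPM and endothelial markers to at most 1.10 in any library. Muscle markers reached 13.6 to 24.7 in DMSO at day 7, nearly all from Des, against 4.85 to 8.31 with ML-792.

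Genes of the wider pathway were read from lists beside the 8 brakes. A list of 16 genes known as ERK outputs was not sorted by the direction in which ERK acts on each. Of these, 9 were lower and 1, Fosl1, higher at day 1 in DMSO (8.27% and 5.44% of all entries). At day 7, 13 were lower and 0 higher (17.1% and 15.5%). Their median log2 fold change at day 7 was -2.93, against -0.06 over all entries. Fos, the immediate early partner in AP-1, fell by 3.95 ± 0.27 on the log2 scale at day 1 (edgeR adjusted p = 9.5e-08), and Epha4 fell by 7.27 ± 0.35 at day 7 (3.9e-10). With ML-792 at day 3, 4 of the 16 were higher and 2 lower (6.87% and 5.99% of all entries). Ccnd1, the D-type cyclin, was higher by 1.74 ± 0.13 at day 3 (1.6e-09) and 1.86 ± 0.13 at day 7 (1.8e-09), while Fosl1 was lower at both days (-0.63 ± 0.19 and -0.72 ± 0.19). The median difference over the 16 genes was 0.13 at day 3 and 0.44 at day 7.

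Other inhibitors and phosphatases did not share one direction either. Of 15 other Dusp genes tested, 3 were higher and 3 lower with ML-792 at day 3, among them Dusp10, a p38 and JNK phosphatase, which was higher by 2.09 ± 0.20 (edgeR adjusted p = 7.8e-08), and Dusp14, lower by 1.48 ± 0.27 (0.00053). Of 15 other inhibitors of receptor-RAS-ERK signalling, 3 were higher, led by the RAS inactivator Rasa2 (1.94 ± 0.21, 4.5e-07), and 1, Dab2ip, was lower (-0.87 ± 0.26). In the DMSO course Il17rd, also called Sef, a membrane inhibitor of FGF signalling, fell by 4.61 ± 0.38 at day 3 (1.1e-07).

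In the relay itself, 0 of 30 genes were higher and 4 lower with ML-792 at day 3, with a median of -0.23. Mknk2, a kinase downstream of ERK, was lower by 1.69 ± 0.14 (edgeR adjusted p = 7.5e-09), and the scaffold gene Ksr1 by 0.96 ± 0.18 (0.00073). Of 14 receptor ligand genes tested, 5 were higher and 1 lower at day 3, with Pdgfc higher (2.03 ± 0.30, 4e-05) and Vegfa lower (-1.17 ± 0.17, 3.1e-05). Of 12 receptors, 2 were higher and 3 lower, with Pdgfra, also a pre-adipocyte marker, higher by 1.48 ± 0.14 (4.2e-08) and Fgfr1 lower (-1.11 ± 0.15, 1.7e-05). Beside these, 6.87% and 5.99% of all entries were called higher and lower at that day.

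The patterns over all 24 libraries were compared by the correlation of log2 normalised total counts, as a description over libraries that share days and treatments. Dusp4 and Spry4 were the most alike of the 8 genes (Pearson r = 0.913), followed by Spred1 and Spry2 (0.905), and Dusp4 and Spred1 the least (-0.680). Dusp1 and Dusp6 had r = 0.273. Among 13331 genes the pattern of Dusp4 was most like those of Cers4 (0.979) and Gm26588 (0.971), that of Spry4 like Tmem120a (0.920) and Rassf3 (0.919), and that of Spred1 like Nfib and Tcea3 (both 0.964).

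Spry2 was most like Lrrfip1 (0.955) and Cnn3 (0.946), Dusp1 like Map4 (0.915) and Ccl5 (0.913), and Dusp6 like Itpripl2 (0.902) and Ttc3 (0.890). Spred2 was most like Epha2 (0.894) and Dock1 (0.893). Spry1 had the least close neighbours, Irf2bp2 (0.866) and Six4 (0.845).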

How the data were processed

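RNA of 3T3-L1 cells was measured in 24 libraries (8 conditions, 3 biological replicates each) by QuantSeq 3′ end sequencing with SLAMseq labelling. The authors deposited raw counts of total reads and of converted (labelled) reads, those carrying 1 T-to-C change or more, per RefSeq 3′UTR entry of mm10, made with SlamDunk. Per the labels, base calls were converted with bcl2fastq 2.17.1.14. Reads are not counted by molecule, so counting intervals cover counting error only, and no strand or overlap rule was applied here beyond that of the tables. The tables held 6 library columns that match no sample, and these were not used.

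Counts were taken as deposited and tested with edgeR 4.0.16 (limma 3.58.1, R 4.3.3): robust quasi-likelihood fits, TMM over the 24 libraries, entries kept by filterByExpr (minimum count 10, minimum total 15), Benjamini-Hochberg adjustment over all entries tested. To normalise, each count was divided by its library's TMM-scaled size relative to the mean of these sizes. Labelled counts took the library sizes of the total counts. The DMSO days were fitted on 12 libraries (called at an adjusted p under 0.01, and sharing the day -2 controls), ML-792 against DMSO and the day-by-treatment terms on 24 (under 0.1). The labelled share was tested on labelled against unlabelled counts of the same library, each with its own library size. DESeq2 1.42.0, filters, scaling, entries, call rules, a replicate block and each replicate left out were the alternatives. Fits were tested on simulated data, where 95.9% of 4-fold and 16% of 2-fold changes were recovered for total reads with ML-792 at day 3, and 69.2% and 12.7% for labelled reads. Of the calls in that total-read simulation 12.8% were false. The simulated libraries had the same spread for every entry, no replicate effect and, in these tests, a labelled share of each entry that was constant over conditions. Such rates need not hold for the real libraries, where replicate B stood apart and the labelled share fell after day -2. Recovery of 4-fold and 2-fold changes was 87.8% and 4.2% for total reads at day 1 against day -2, 50% and 0% for labelled reads there, 66.3% and 0% for the day-by-treatment terms in total reads and 24.2% and 0% for those in labelled reads.

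Members and lists were chosen with earlier results of these data known. Named beside the members are, per list and comparison, at most 4 called genes (2 from either end of the fold changes), and, per member, the 2 genes with the most similar pattern. Labelled share percentiles use genes with at least 100 total reads in each library of the condition. Promoters and 3′UTR bases come from RefSeq tables and the mouse reference of the same build.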

Additional observations from a re-analysis of the deposited data

Results flagged for a closer look

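The effect of ML-792 differed between the days for 5 of the 8 feedback genes in total reads, where 9.66% of all entries did, and for 0 without replicate A, 5 without B and 1 without C. By the test of the day-by-treatment terms (edgeR quasi-likelihood, Benjamini-Hochberg adjusted), the adjusted p was 0.0017 for Dusp1, 0.0025 for Dusp6, 0.057 for Spry4, 0.059 for Dusp4 and 0.061 for Spry1. Dusp1 had its deepest difference at day 3, Dusp6 was higher at days 3 and 7, and Dusp4 was higher at day 1. In labelled reads the adjusted p was 0.085 for Spry1 (0.49, 0.13 and 0.74 without A, B and C), whose 3 ML-792 libraries at day 3 held 1, 3 and 2 labelled reads.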

How the results depend on the processing

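No called result changed direction under any alternative tried. Of the values for single genes under an alternative, 1672 kept their side of the threshold, 98 lost the call and 45 gained one. In total reads, the members called at day 1 against day -2 were 3, and 1 with an absolute log2 fold change above 1, and 0 to 6 with a replicate left out. At day 7 they were 8 (5 to 8 with a replicate left out), and between days 3 and 7 they were 5 (1 to 6). With ML-792 they were 3 at day 1, 1 with the 6 libraries of that day alone and 1 to 3 with a replicate left out, and 3 at day 7, 1 at an adjusted p under 0.01 and 1 to 3 with a replicate left out. For the day-by-treatment terms they were 5 (0 to 5). In labelled reads they were 6 at day 1 (3 to 6 with a replicate left out, 1 when scaled by labelled reads). At day 3 they were 6 (3 when scaled by labelled reads, with Spry4 called higher). They were 1 between days 1 and 3 (0 to 1) and 1 between days 3 and 7 (0 to 1). With ML-792 at day 1 it was 1 gene in labelled reads, 2 in DESeq2, and 0 without the filter on low counts, scaled by labelled reads, at an adjusted p under 0.01, with the 6 libraries of the day or with any replicate left out. At day 7 it was 1, and 0 without the filter, scaled by labelled reads or at an adjusted p under 0.01, and 0 to 1 with a replicate left out. The labelled terms of day by treatment called 1, 2 in DESeq2, and 0 to 1 with a replicate left out. The labelled share with library sizes of the total counts called 3, 7 and 5 genes at days 1, 3 and 7, against 0 with each kind of read scaled by its own total. The cause was not tested, except that this scaling keeps the drop of the whole library in the value. Shares of all entries called were not counted under the alternatives.

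The fits reported here did not block on the replicate letter, since the labels do not say that a letter marks a shared batch. Same-letter libraries did deviate together in most cases: in total reads 68 of 84 such pairs correlated over 0.1. Their mean was 0.191 and their lowest value -0.173, against a mean of -0.0939 for other letters. The SEs and calls above thus include variation shared by a letter, which a block removes. With a replicate block 5 genes were called at day 1 against day -2 in total reads, 5 with ML-792 at day 1 in total reads (Dusp6 and Spry2 were added), 3 in labelled reads (Spry1 and Spry2 were added), and 2 for the day-by-treatment terms in labelled reads (Dusp1 was added). The block also added Spry4 at day 3 and Spry1 at day 7 with ML-792 in total reads. Labelled counts of Dusp4, Spred1 and Spred2 were low, with 0 to 6 labelled reads of Spred2 per library after day -2, which limits what could be detected between these later conditions.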
